A study of Sus scrofa with 16 samples.

Results

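Colonic mucosa of pigs fed a raw potato starch (RPS) diet was compared with that of pigs fed a corn starch (CS) diet, gene by gene, on 8 one-colour porcine microarrays out of the 16 in the series. On each array 14269 probes could be given 1 gene name. A named probe was kept when its spot was well above background on the 4 arrays of at least 1 diet, which left 11778 probes for 5620 genes of the 6940 named on the array. Of these probes, 11263 were above background on all 8 arrays, 465 were above background on every array of the CS diet but not of the RPS diet, and 50 the other way round.

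Each diet group held 4 male barrows of Duroc × Landrace × Large White breeding, sampled at 170 d of age after a 100-day trial that began at 70 d. The CS pigs ate a corn and soybean feed with purified corn starch, at 230 g/kg up to 120 d of age and at 280 g/kg in the finishing feed that followed. For the RPS pigs, purified raw potato starch took the place of that corn starch, and access to feed and water was unlimited in both groups. The mucosa was scraped from the proximal colon, so each array measured a mixture of cells from castrated males of 1 cross. The purpose of the comparison was to see how long-term intake of a starch that resists digestion changed gene expression in the colon.

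The surface of the colon is a single sheet of absorptive, goblet and hormone-producing enteroendocrine cells, renewed from stem cells at the base of the crypts. Absorptive cells take up sodium, chloride and water through exchangers and channels and burn short-chain fatty acids, above all butyrate, which bacteria release from starch that escapes digestion upstream. Beneath the sheet, fibroblasts and smooth muscle cells build the collagen and microfibril framework, and macrophages, lymphocytes and plasma cells fill the space between them. In such a mixture fewer cells of a type and less RNA per cell cannot be told apart.

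Probe sequences are shown for genes with more than 1 probe, because agreement between probes on different stretches of a transcript is a check on the measurement that a single probe cannot give. The array files give each probe as 60 bases, written here 5′ to 3′ in lower case, with no genome build or position. The first line is a probe of CELA2A, which was higher with RPS, as was the DNAJC12 probe in the second line. The SLC7A8, ACP5 and first FBN1 probes were lower with RPS, and the last line is a second FBN1 probe that did not pass the test. No 15-base run is shared by the probes compared within any of these 5 genes.
CELA2A: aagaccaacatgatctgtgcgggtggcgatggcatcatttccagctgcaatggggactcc
DNAJC12: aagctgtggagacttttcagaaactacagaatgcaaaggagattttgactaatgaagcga
SLC7A8: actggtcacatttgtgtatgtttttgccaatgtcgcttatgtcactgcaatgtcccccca
ACP5: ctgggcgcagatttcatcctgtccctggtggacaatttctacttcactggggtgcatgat
FBN1: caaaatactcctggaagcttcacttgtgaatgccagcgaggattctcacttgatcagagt
FBN1: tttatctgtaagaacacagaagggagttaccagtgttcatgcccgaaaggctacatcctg

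The arrays of CS pig 3 and RPS pig 2 stood apart from the other 6 in epithelial and B cell genes. Levels are given as log2 signal of the authors' normalized values, always in the order of pigs 1 to 4. On the first axis of a principal component analysis, which held 59.7% of the variance, CS pig 3 scored 0.67 and RPS pig 2 scored 0.51, while the other 6 arrays lay between -0.29 and -0.06. SLC26A3, the chloride and bicarbonate exchanger of the colonic surface, had levels of 13.96, 13.54, 8.93 and 13.30 with CS, and with RPS of 14.04 and 10.67 in pigs 1 and 2, a level just under 15 in pig 3 and 11.22 in pig 4. The level of S100G, an epithelial calcium-binding protein, was 5.29 in CS pig 3 and 8.68 in RPS pig 2 but 13.09 to 15.47 in the other 6.

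HOXA13, a homeobox gene of the hindgut, had a level of 3.88 in CS pig 3 and 6.57 in RPS pig 2, against 8.80 to 9.43 in the other 6 arrays. FABP6, a bile acid binding protein best known from the ileum, had its highest levels, 14.73 and 16.59, in these same arrays. The B cell gene MS4A1 was also highest there, at 12.68 in CS pig 3 and 12.53 in RPS pig 2 against 6.25 to 10.21 elsewhere. On the second axis, with 13.8% of the variance, RPS pig 4 scored 0.89, and its CLCA4 level of 9.85 lay below the 11.17 to 15.83 of the other arrays at the same probe. Results are therefore given for all 8 arrays and, where this matters, without CS pig 3 and RPS pig 2, an alternative chosen after the values were seen.

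**Figure D1:**
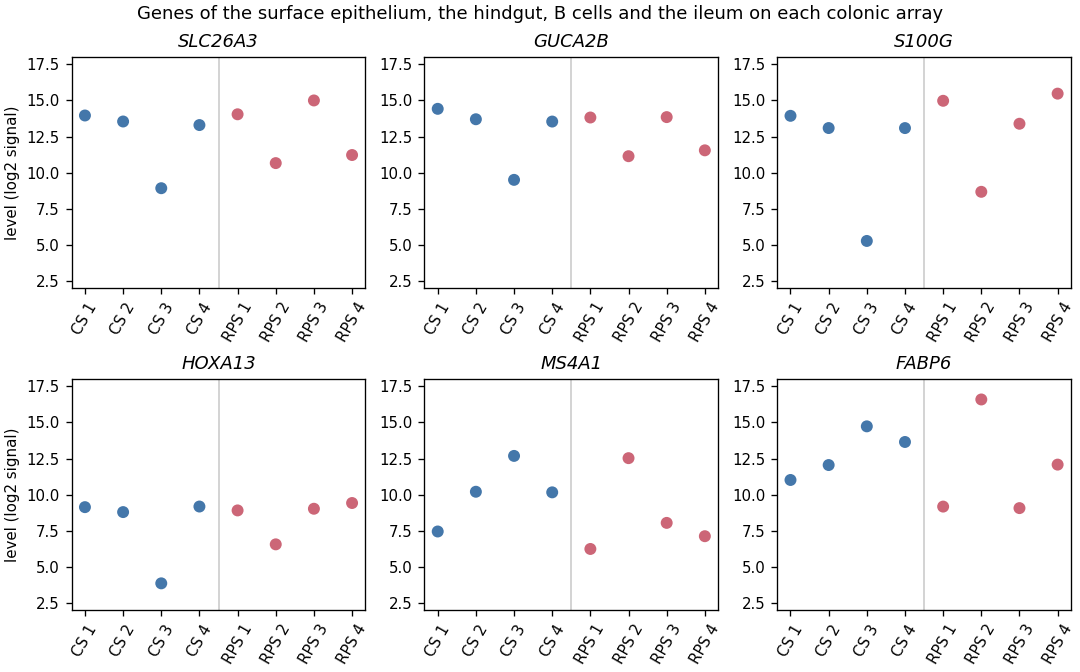
Level (log2 signal) of 6 genes in each of the 8 colonic arrays, 1 point per pig, with CS and RPS pigs numbered 1 to 4 on the horizontal axis. CS pig 3 and RPS pig 2 had the lowest SLC26A3, GUCA2B, S100G and HOXA13 levels and the highest MS4A1 and FABP6 levels.

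Diet also coincided with the slide, since the 4 CS arrays shared 1 slide and scan and the 4 RPS arrays another, so that slide and diet cannot be told apart. Median scanner signal was 56.3 to 70.8 on the CS arrays and 34.2 to 42.5 on the RPS arrays, and 68.8% to 72.2% of probes were well above background with CS against 64.9% to 68.1% with RPS. No spot was saturated.

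**Figure D2:**
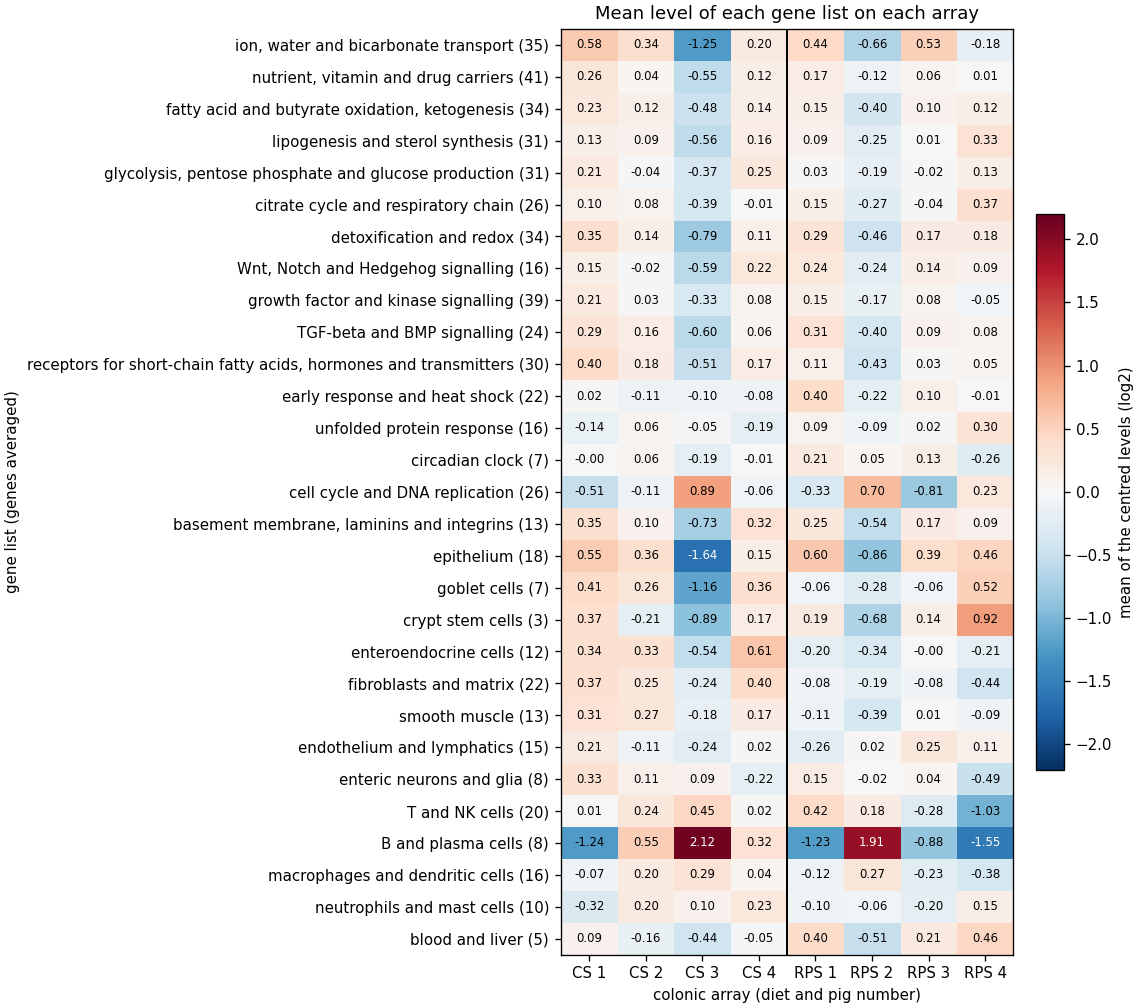
Mean level of 29 gene lists in each colonic array, as log2 difference from the mean of the 8 arrays, with the number of genes averaged in brackets. The epithelium, goblet and ion transport lists were lowest in CS pig 3, and the B and plasma cell list was highest in CS pig 3 and RPS pig 2, at 2.12 and 1.91.

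Among the 11263 named probes above background on all 8 arrays, 209 (1.86%) differed between diets by more than 1.5-fold at p under 0.05 before adjustment, the thresholds of the study. Of these, 92 (0.817%) were higher and 117 (1.04%) were lower with RPS. Over every probe on the array the count was 1215 (2.79%), with 670 (1.54%) higher and 545 (1.25%) lower, a larger share than among the named probes. In limma with all 8 arrays, 2269 of all probes and 537 of the 11263 had an unadjusted p under 0.05, about the share that chance alone gives. That count over all probes ran from 1655 without CS pig 4 to 5095 after scaling to the 75th percentile. It was 3977 without CS pig 3 and RPS pig 2. In simulated data of as many probes, 1382 unchanged ones passed both thresholds, more than the 1215 here. The simulated noise was drawn for each probe on its own, so this comparison is rough. In the fit of all 8 arrays, these counts of passing probes alone therefore do not show more differences than chance gives. No probe had an adjusted p under 0.05 in this fit (0%). The smallest adjusted p was 0.0648 over all probes and 0.149 over the named ones. Of the alternative fits, that of all 16 arrays together gave 33 probes with an adjusted p under 0.05. There were 9 without RPS pig 2, 1 without RPS pig 3 and 1 without both CS pig 3 and RPS pig 2. The other fits gave none. "Passed" below therefore means both unadjusted thresholds, and the number of arrays limits the precision of every value.

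The 4 levels of one diet lay wholly above or below those of the other in 296 (2.63%) of the 11263 probes and in 2829 (6.49%) of all probes. Chance gives a share of 0.0286, so the first share was near it and the second above it. The cause of the second was not tested. Probes above background on the arrays of 1 diet had to differ and were counted apart, with 35 of 465 passing lower and 13 of 50 passing higher with RPS. With each gene read at its brightest probe, 124 of 5620 genes (2.21%) passed, 68 (1.21%) higher and 56 (0.996%) lower with RPS. Of the 5620, 5353 were read at a probe above background on all 8 arrays, and the others at a probe kept through 1 diet. Without CS pig 3 and RPS pig 2, more passed, namely 2375 of all probes (5.45%), 549 of the 11263 (4.87%) and 304 of the genes (5.41%), the last with 94 higher and 210 lower.

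Of 2512 genes with at least 2 probes above background on all 8 arrays, 1428 (56.8%) had the same sign at every probe, and 19 (0.756%) also had at least 2 probes past both thresholds. Of these, 6 were higher with RPS, CELA2A, DNAJC12, MTERFD3 and TCTEX1D4 among them, and 13 were lower, among them ACP5, TYROBP and FBN1. The other 12 are genes listed in the study's own tables and are not described here. SLC7A8 and NNAT joined them when probes above background on the arrays of 1 diet were admitted.

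CELA2A encodes a serine protease best known as pancreatic elastase. Its first probe had levels of 7.55, 7.21, 6.32 and 7.35 with CS and of 8.10, 7.45, 7.73 and 8.15 with RPS, a difference of 0.75 ± 0.30 (log2, SE). Its second probe differed by 0.77 ± 0.32. CS pig 3 was lowest at both, and RPS pig 2 at 7.45 lay below CS pig 1 at 7.55, so the groups overlapped (exact permutation p = 0.0571). The difference was 0.62 at either probe, and both passed, without CS pig 3 and RPS pig 2. Leaving out CS pig 3 alone ended the call at both, as did leaving out CS pig 2 or RPS pig 1, 3 or 4. So did normexp background correction, which left 0.56 and 0.42. That correction adds an offset of 50 to every signal, which by itself shrinks differences at dim spots, here and below.

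TCTEX1D4, a dynein light chain family member, had levels of 3.61, 3.50, 3.22 and 3.11 with CS and of 4.10, 4.35, 4.34 and 3.80 with RPS at its first probe. Every RPS pig lay above every CS pig, and the difference was 0.79 ± 0.17 (log2, SE, limma adjusted p = 0.498, exact permutation p = 0.0286, the smallest that 4 against 4 allow). Its second probe, which shares a run of 57 of the 60 bases, differed by 0.60 ± 0.23 with overlapping groups. These are dim spots, and after normexp background correction the differences were 0.18 and 0.10 and neither passed. At such low signals the offset alone shrinks differences that far, so this loss is no check of the calls. Leaving out any 1 array kept the call at the first probe, while leaving out CS pig 2, 3 or 4 or RPS pig 1, 2 or 3 ended it at the second.

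MTERFD3, of the mitochondrial transcription termination factor family, had levels of 6.72, 6.58, 6.15 and 6.38 with CS and of 7.57, 6.46, 7.38 and 6.98 with RPS, a difference of 0.64 ± 0.26 (log2, SE). RPS pig 2 lay among the CS pigs and the other 3 RPS pigs above them. The second MTERFD3 probe, with 43 bases in common, differed by 0.63, and without CS pig 3 and RPS pig 2 the differences were 0.75 and 0.71, both past the thresholds. Normexp correction, scaling to the 75th percentile and leaving out CS pig 2, 3 or 4 or RPS pig 1, 3 or 4 each ended both calls.

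DNAJC12, a J-domain co-chaperone, had 3 probes with differences of 0.44, 0.59 and 0.67, of which the last 2 passed. At the third, the levels were 4.18, 3.60, 3.60 and 4.09 with CS and 5.18, 4.51, 4.16 and 4.29 with RPS, and RPS pig 3 lay within the CS range. No DNAJC12 probe passed without CS pig 3 and RPS pig 2, at 0.26, 0.36 and 0.59. Leaving out CS pig 2 or 3 or RPS pig 1 or 2 alone, or normexp correction, also ended both calls.

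ACP5, tartrate-resistant acid phosphatase, an enzyme of macrophages and osteoclasts, was lower with RPS at all 4 of its probes, 3 of which passed. At the probe with the largest difference the levels were 11.69, 11.61, 11.48 and 11.19 with CS and 10.91, 11.05, 10.15 and 9.83 with RPS, a difference of -1.01 ± 0.29 (log2, SE, limma adjusted p = 0.711). At the probe shown above they were 8.97, 8.66, 8.59 and 8.22 with CS and 8.10, 8.12, 7.72 and 7.51 with RPS, a difference of -0.75 ± 0.21. At both probes each CS pig lay above each RPS pig (exact permutation p = 0.0286). The calls held in 17 and 16 of 17 alternative settings of processing, fit or arrays. Here and below, these 17 leave out averaging probes by gene, the filter to probes above background on all 8 arrays and a fold change above 2. Some of the 17 change the test and not the difference. The other ACP5 probes differed by -0.65, which passed, and by -0.46, which did not, the latter being the brightest probe, with mean levels of 15.57 with CS and 15.11 with RPS.

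TYROBP, the signalling adaptor of myeloid and natural killer cell receptors, had levels of 11.83, 11.96, 11.65 and 11.73 with CS and of 11.30, 11.66, 11.03 and 10.48 with RPS, a difference of -0.68 ± 0.24 (log2, SE). RPS pig 2 lay just above CS pig 3, and RPS pig 4 was lowest. The second TYROBP probe, with 42 shared bases, differed by -0.61, and without CS pig 3 and RPS pig 2 the differences were -0.90 and -0.82. Leaving out CS pig 1 or 2 or RPS pig 3 or 4 ended the call at both probes, as did scaling to the 75th percentile, at -0.58 and -0.51.

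FBN1 encodes fibrillin 1, the backbone of microfibrils. At the first FBN1 probe shown above the levels were 5.45, 5.11, 5.18 and 6.24 with CS and 5.25, 4.77, 4.57 and 4.18 with RPS, a difference of -0.80 ± 0.32 (log2, SE). A further probe differed by -0.60 ± 0.22, while the second probe shown differed by -0.19 and did not pass. CS pig 4 had the highest level at the first probe, and without that array neither passed and the difference at the probe shown second turned to 0.025. The 2 calls also ended without RPS pig 3 or RPS pig 4 and after normexp correction, at -0.36 and -0.17. The -0.80 became -0.93 and did not pass, and the -0.60 became -0.83 and did, without CS pig 3 and RPS pig 2.

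SLC7A8 encodes LAT2, an exchanger of neutral amino acids. Its levels were 5.46, 5.01, 4.65 and 4.69 with CS and 4.09, 4.81, 4.12 and 3.15 with RPS at the probe shown above, a difference of -0.91 ± 0.36 (log2, SE) that was -0.26 and did not pass after normexp correction. RPS pig 2 lay within the CS range and the other 3 RPS pigs below it, and without RPS pig 2 and CS pig 3 the difference was -1.27. The second SLC7A8 probe was not well above background on any RPS array, and in the authors' values its level was at least 2.05-fold higher with CS. That bound, like the others below, sets the CS mean against the higher of the lowest signal above background and the probe's own signal on each RPS array. Such bounds hold for the authors' values only, and after normexp correction this probe differed by -0.21. Leaving out CS pig 1 or 2 or RPS pig 3 or 4 ended the call at both probes.

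NNAT, the small membrane protein neuronatin, was at least 1.92-fold higher with CS at its first probe, with levels of 4.47, 3.82, 3.07 and 4.88 against 3.17, 2.18, 2.89 and 3.52 with RPS, none of the latter well above background. CS pig 3 lay within the RPS range. The second NNAT probe differed by -1.05, with 2 of the 4 RPS arrays above background, and both calls were lost after normexp correction or without CS pig 1, 2 or 4 or RPS pig 2 or 3. After normexp correction the NNAT differences were -0.20 and -0.23. Over the 9 multi-probe genes named here, limma adjusted p-values of the probes that passed ran from 0.498 for TCTEX1D4 to 0.945 for CELA2A.

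**Figure D3:**
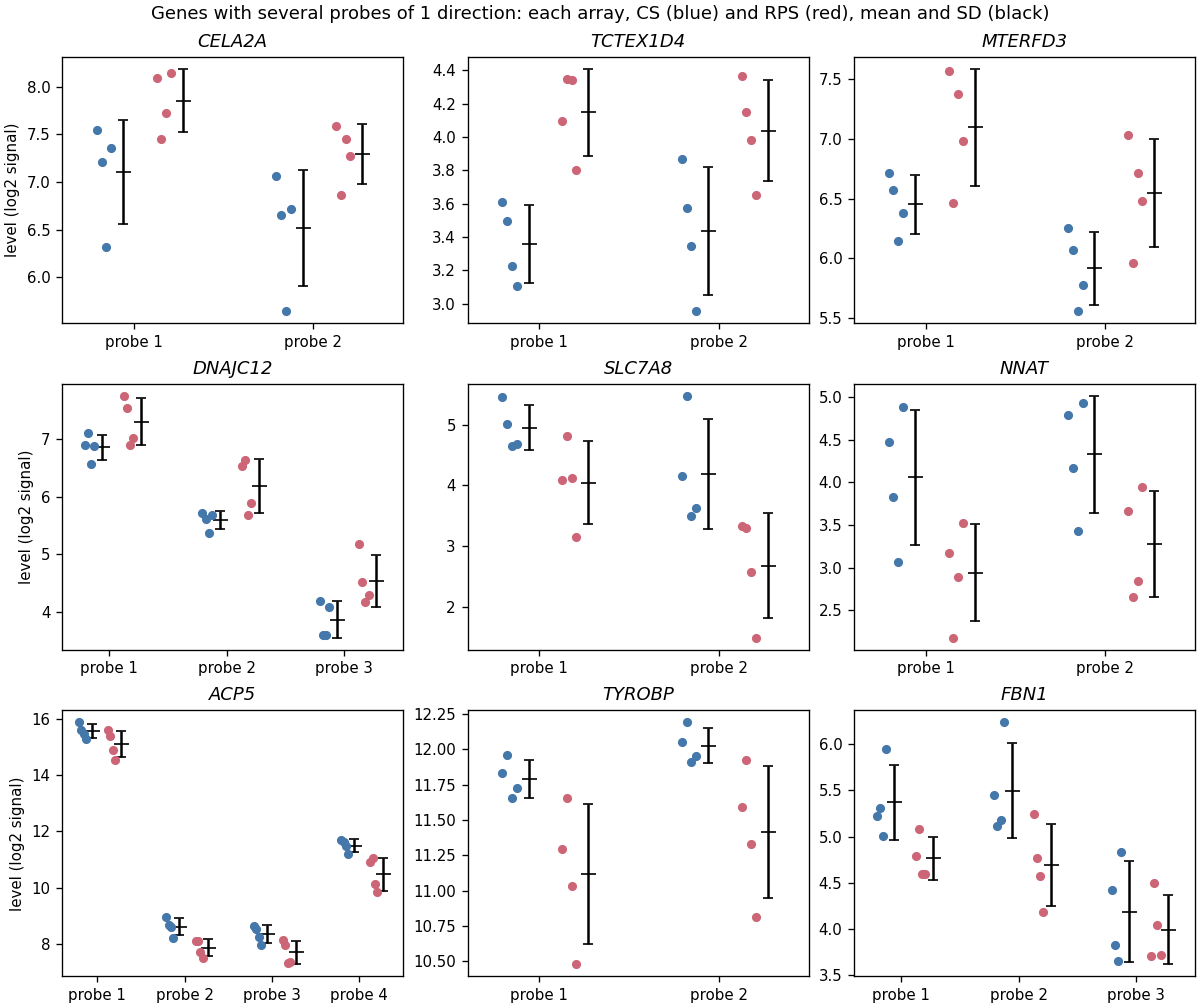
Level (log2 signal) of the 9 named multi-probe genes at each of their probes, with CS pigs in blue, RPS pigs in red and the mean ± SD in black. The groups were apart at the first TCTEX1D4 probe and at the ACP5 probes with differences of -0.75 and -1.01, and overlapped at the CELA2A, MTERFD3, DNAJC12 and TYROBP probes.

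Genes of epithelial ion, water and bicarbonate transport did not pass the test with all 8 arrays. Of 60 genes listed, 35 were measured, 21 higher and 14 lower with RPS, with none past both thresholds and a median difference of 0.12 (log2), where all 5620 genes had 2899 higher, 2721 lower and a median of 0.01. Without CS pig 3 and RPS pig 2, the direction of the median turned to -0.10, with 16 higher and 19 lower. Ion transport was lowest in these arrays, with list means of -1.25 in CS pig 3 and -0.66 in RPS pig 2 against -0.18 to 0.58 elsewhere.

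AQP3, an aquaglyceroporin of the epithelium, had the smallest p of the list with a difference of -0.51. The following transport genes were picked after their values were seen. SLC26A3 differed by 0.30 ± 1.44 (log2, SE) with all arrays and by -0.18 ± 0.99 without CS pig 3 and RPS pig 2. CA2, carbonic anhydrase 2, had levels of 12.57, 14.09, 13.20 and 14.90 with CS and of 14.16, 14.43, 15.22 and 14.49 with RPS, a difference of 0.88 ± 0.51 in which CS pig 4 lay inside the RPS range and CS pig 2 just below it. CFTR, the chloride channel of the crypt, differed by 0.63 ± 0.39 with all arrays and by 0.69 ± 0.26 without CS pig 3 and RPS pig 2, where it passed. Under that same setting BEST2, a bicarbonate channel of goblet cells, passed in the other direction at -1.04.

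Of 43 measured carriers of nutrients, vitamins and drugs, 25 were higher and 18 lower, with a median of 0.05, and TFRC passed higher and SLC7A8 passed lower. The SLC7A8 probe was kept through the CS arrays alone, since 3 of the 4 RPS arrays were above background. TFRC, the transferrin receptor that brings iron into cells, had levels of 4.96, 4.82, 5.04 and 4.73 with CS and of 5.70, 5.27, 5.51 and 6.57 with RPS. Each RPS pig lay above each CS pig, RPS pig 4 furthest, with means of 4.89 ± 0.14 and 5.76 ± 0.57 (SD, n = 4 each, exact permutation p = 0.0286). The difference of 0.87 ± 0.27 (log2, SE, limma adjusted p = 0.77) held in 15 of 17 alternative settings and was 1.09 without CS pig 3 and RPS pig 2, but was 0.38 and did not pass after normexp correction. SLC16A1, the monocarboxylate transporter that carries butyrate, had a difference of 0.43 ± 0.80 with a level of 9.91 in CS pig 3 against 11.01 to 13.23 elsewhere.

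Lists of energy metabolism had medians between 0.02 and 0.11 and 1 gene that passed. Among 34 genes of fatty acid and butyrate oxidation and ketogenesis, 21 were higher and 13 lower. ACSL1, which activates long-chain fatty acids to their CoA esters, was the gene that passed, with levels of 10.42, 10.54, 10.04 and 10.15 with CS and of 9.55, 9.56, 9.26 and 9.82 with RPS. Each RPS pig lay below each CS pig, at 9.55 ± 0.23 against 10.29 ± 0.23 (SD, n = 4 each, exact permutation p = 0.0286), a difference of -0.74 ± 0.16 (SE, limma adjusted p = 0.505) that passed in each of 17 alternative settings. The call was lost when the ACSL1 probes were averaged.

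Of 32 genes of lipogenesis and sterol synthesis, 21 were higher, 11 lower and none passed, and SREBF1, the transcription factor of lipogenesis, had the smallest p with a difference of -0.41 ± 0.16 and groups that did not overlap. FADS2, a fatty acid desaturase picked after its values were seen, had levels of 5.02 in CS pig 3 and 5.35 in RPS pig 2, while the other levels were 2.83 to 3.21 with CS and 0.84 to 1.57 with RPS, where 1 of the 4 arrays was above background. Of 32 genes of glycolysis, the pentose phosphate path and glucose production, 17 were higher and 15 lower. Among 26 genes of the citrate cycle and respiratory chain 21 were higher and 5 lower, with a median of 0.11, and none of these genes passed. With CS pig 3, RPS pig 2 and RPS pig 4 left out together, 12 citrate cycle and respiratory chain genes were higher and 14 lower, with a median of -0.01. In that setting the medians were -0.03 for fatty acid oxidation, -0.06 for lipogenesis and -0.10 for glycolysis. The genes with the smallest p were PKM2, pyruvate kinase, at -0.43, and TFAM, the mitochondrial transcription factor, at 0.36.

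Of 34 genes of detoxification and redox, 21 were higher and 13 lower, with a median of 0.13. AKR1B1, aldose reductase, passed, with levels of 9.0, 9.23, 9.71 and 8.58 with CS and of 8.41, 9.07, 7.86 and 8.02 with RPS, a difference of -0.79 ± 0.33 (log2, SE). RPS pig 2 lay among the CS pigs, and leaving out CS pig 1, 2 or 3 or RPS pig 1, 3 or 4 ended the call, whereas without both CS pig 3 and RPS pig 2 it held at -0.84. NQO1, a quinone reductase picked after its values were seen, differed by 1.04 ± 0.46 without passing, with 8.54 in CS pig 3 as its lowest level and 11.48 in RPS pig 4 as its highest.

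In signalling, SPRY2 and FFAR1 passed higher and PDGFRB and LPAR1 lower with RPS. SPRY2, a feedback inhibitor of receptor tyrosine kinases, had levels of 11.27, 11.22, 10.81 and 11.22 with CS and of 11.79, 11.63, 12.05 and 11.87 with RPS. All 4 RPS pigs lay above all 4 CS pigs, at 11.83 ± 0.18 against 11.13 ± 0.22 (SD, n = 4 each, exact permutation p = 0.0286). The SPRY2 difference was 0.71 ± 0.14 (log2, SE, limma adjusted p = 0.457), it passed in 16 of 17 alternative settings, and after normexp correction it was 0.57, below the fold threshold.

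PDGFRB, the receptor of platelet-derived growth factor on fibroblasts and pericytes, had levels of 5.27, 5.04, 4.63 and 5.23 with CS and of 4.13, 4.67, 4.58 and 4.09 with RPS. CS pig 3 lay below RPS pig 2, and the other CS pigs lay above all RPS pigs. Its difference was -0.67 ± 0.20 (log2, SE), -0.91 without CS pig 3 and RPS pig 2, and -0.13 after normexp correction, where it did not pass. It also did not pass without RPS pig 4. Over the 39 genes of growth factor and kinase signalling, 21 were higher and 18 lower, with a median of 0.03. VEGFA, the vascular growth factor, chosen after its values were seen, differed by 1.15 ± 0.68 without passing.

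Of 32 receptors for short-chain fatty acids, hormones and transmitters, 13 were higher and 19 lower, with a median of -0.07. FFAR1, a receptor for medium and long-chain fatty acids, had levels of 3.00, 3.05, 3.11 and 3.28 with CS and of 3.81, 3.38, 4.11 and 4.07 with RPS. The groups did not overlap, RPS pig 2 lay closest to the CS pigs, and the difference was 0.73 ± 0.18 (log2, SE, limma adjusted p = 0.555). After normexp correction of this dim spot it was 0.18 and did not pass. FFAR2 and FFAR3, the receptors for short-chain fatty acids, were not among the named probes above background.

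LPAR1, a receptor for lysophosphatidic acid, had levels of 5.01, 3.78, 3.89 and 3.78 with CS and of 3.59, 3.43, 3.46 and 3.06 with RPS, a difference of -0.73 ± 0.30 (log2, SE). Its probe was kept through the CS arrays alone, since 3 of the 4 RPS arrays were above background. The groups did not overlap, but CS pig 1 lay far above the rest, and without it, or without CS pig 3 or any 1 RPS pig, the call was lost. Normexp correction left -0.14.

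**Figure D4:**
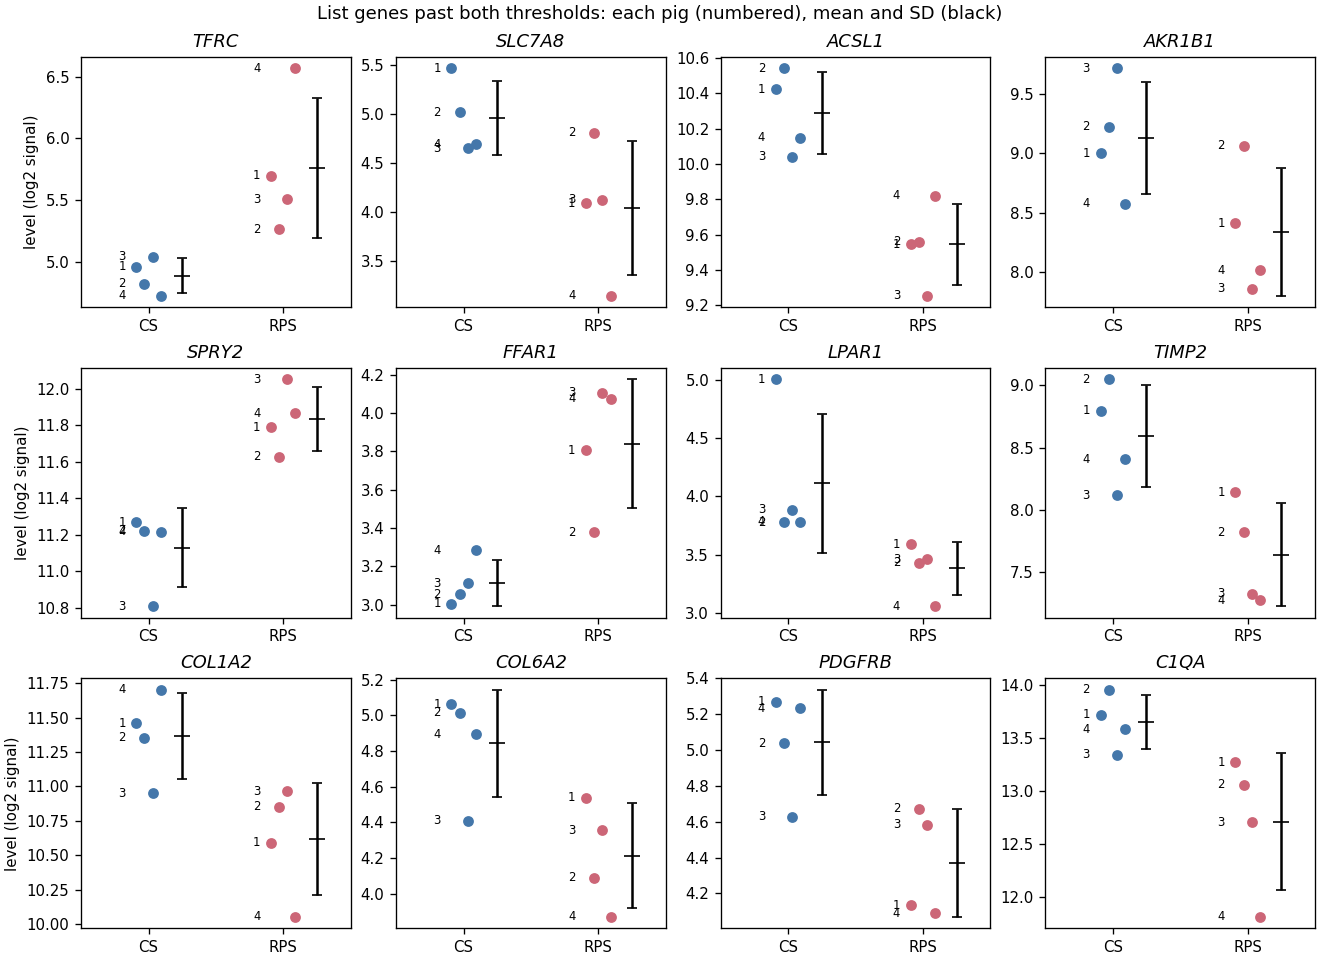
Level (log2 signal) of 12 list genes that passed both thresholds, with each pig numbered, CS pigs in blue, RPS pigs in red and the mean ± SD in black. The groups did not overlap for TFRC, ACSL1, SPRY2, FFAR1, LPAR1 and C1QA and overlapped for SLC7A8, AKR1B1, PDGFRB, TIMP2 and COL1A2.

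Of 17 measured genes of Wnt, Notch and Hedgehog signalling, 15 were higher and 2 lower with RPS. Their median was 0.19 and none passed the thresholds. Without CS pig 3 and RPS pig 2, 12 were higher and 5 lower, with a median of 0.13, and 1 passed in each direction. With RPS pig 4 left out as well, the median was 0.07. HEY1, a transcriptional repressor downstream of Notch, had levels of 8.09, 7.98, 7.76 and 8.07 with CS and of 8.34, 8.41, 8.31 and 8.38 with RPS. Its groups did not overlap, and its difference of 0.38 ± 0.10 stayed under the fold threshold. Of 24 genes of TGF-beta and BMP signalling, 17 were higher and 7 lower, with a median of 0.11. BMP4, a crypt niche ligand made by stromal cells, had the smallest p there, with levels of 6.92 to 8.38 with CS and of 6.29 to 7.45 with RPS, a difference of -0.78 ± 0.37 that passed, at -0.84 ± 0.21, without CS pig 3 and RPS pig 2.

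Fibroblast and matrix genes were mostly lower with RPS. Of 22 measured, 2 were higher and 20 lower, with a median of -0.38 against 0.01 over all genes, and 5 passed lower, TIMP2, FBN1, COL1A2, PDGFRB and COL6A2, where 56 of all 5620 genes (0.996%) did. Without CS pig 3 and RPS pig 2 the median was -0.52, 1 was higher and 21 lower, and 6 passed lower, TIMP2, COL1A2, PDGFRB and COL6A2 together with COL5A1 and VIM, where 210 of all 5620 genes did. The median was -0.29 after normexp correction and -0.32 after scaling to the 75th percentile. The list was fixed with earlier results of these data known and supports nothing by itself.

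TIMP2, an inhibitor of matrix metalloproteinases, had levels of 8.80, 9.05, 8.12 and 8.41 with CS and of 8.14, 7.82, 7.32 and 7.27 with RPS. CS pig 3 lay just below RPS pig 1, so the groups overlapped by that pair (exact permutation p = 0.0571). The difference of -0.95 ± 0.28 (log2, SE, limma adjusted p = 0.701) passed in each of 17 alternative settings.

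COL1A2, a chain of type I collagen, had levels of 11.46, 11.35, 10.95 and 11.70 with CS and of 10.59, 10.85, 10.96 and 10.05 with RPS. CS pig 3 and RPS pig 3 had nearly the same level, and the other CS pigs lay above all RPS pigs. The difference was -0.75 ± 0.24 (log2, SE, limma adjusted p = 0.786), it was lost without RPS pig 4, and it was -0.97 without CS pig 3 and RPS pig 2. COL6A2, a type VI collagen chain described after its values were seen, differed by -0.63 ± 0.20.

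The mean of the fibroblast list, taken over genes above background on all 8 arrays, was 0.37, 0.25, -0.24 and 0.40 in the CS pigs and -0.08, -0.19, -0.08 and -0.44 in the RPS pigs. CS pig 3 lay within the RPS range, and without CS pig 3 and RPS pig 2 the list means of the diets were apart. Smooth muscle genes had the same order of diets, with 3 of 13 higher and 10 lower, a median of -0.32 and none past the thresholds. ACTA2, smooth muscle actin, had levels of 14.51, 14.62, 14.52 and 14.57 with CS and of 14.16, 13.79, 14.26 and 13.78 with RPS. All CS pigs lay above all RPS pigs, and the difference of -0.56 ± 0.13 (log2, SE, limma adjusted p = 0.539) was a fold change of 1.47, under the threshold.

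Of 14 genes of basement membrane, laminins and integrins, 6 were higher and 8 lower, with a median of -0.11, and COL7A1, the anchoring fibril collagen, had the smallest p at -0.39 with groups that did not overlap. Of 16 endothelial and lymphatic genes, 8 were higher and 8 lower, with a median of 0.01. CCL21, a chemokine of lymphatic vessels, had the smallest p there, at -0.89. The 9 genes of enteric neurons and glia split into 4 higher and 5 lower. None of these passed.

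Enteroendocrine genes had the lowest median of the epithelial cell lists. Of 12 measured, 2 were higher and 10 lower with RPS, with a median of -0.45 and none past the thresholds. CHGA, chromogranin A of hormone granules, had levels of 15.70, 15.75, 15.41 and 15.51 with CS and of 15.31, 15.36, 15.34 and 15.20 with RPS. The diets did not overlap, though the difference was -0.29 ± 0.11 (log2, SE, limma adjusted p = 0.879) and was -0.15 after scaling to the 75th percentile.

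Without CS pig 3 and RPS pig 2, 1 enteroendocrine gene was higher and 11 were lower, the median was -0.53, and 3 passed lower, where 210 of all 5620 genes did. These were PYY, peptide YY of the L cells, at -1.30 ± 0.50, SCG5, a secretogranin, at -0.82, and CPE, the prohormone-processing carboxypeptidase E, at -0.68 ± 0.15. PYY had levels of 11.73, 10.57, 7.40 and 11.80 with CS and of 9.64, 9.17, 10.88 and 9.69 with RPS. CS pig 3 was lowest of all, and with all arrays the PYY difference was -0.53 ± 1.00.

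Epithelial marker genes were 17 higher and 1 lower with a median of 0.22, which was 0.05, with 12 higher and 6 lower, without CS pig 3 and RPS pig 2. The list mean was 0.55, 0.36, -1.64 and 0.15 in the CS pigs and 0.60, -0.86, 0.39 and 0.46 in the RPS pigs, so those arrays were the lowest. KRT18, a keratin of simple epithelia, had the smallest p, at 0.63. Goblet cell genes were 5 higher and 2 lower, with a median of 0.07 that turned to -0.20 without these arrays, and ITLN2, an intelectin, had the smallest p at 1.38. The 4 measured stem cell genes were higher, with a median of 0.23 and none past the thresholds. LGR5, a receptor marking crypt stem cells, differed by 0.32 ± 0.76, and by 0.76 ± 0.29 without CS pig 3 and RPS pig 2, where it passed.

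Leukocyte genes were mostly lower with RPS. Of 17 macrophage and dendritic cell genes, 4 were higher and 13 lower, with a median of -0.30, and C1QA and TYROBP passed lower, where 56 of all 5620 genes did. C1QA, a chain of complement C1q that macrophages make, had levels of 13.72, 13.96, 13.34 and 13.58 with CS and of 13.27, 13.06, 12.70 and 11.81 with RPS. Each CS pig lay above each RPS pig, RPS pig 4 being lowest, with means of 13.65 ± 0.26 and 12.71 ± 0.64 (SD, n = 4 each, exact permutation p = 0.0286). The difference of -0.94 ± 0.32 (log2, SE, limma adjusted p = 0.823) passed in 16 of 17 alternative settings and was lost without CS pig 2.

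Of 20 T and NK cell genes, 1 was higher and 19 lower, with a median of -0.27 and none past the thresholds, and NKG7, a granule protein of cytotoxic cells, had the smallest p at -0.81. The T and NK list mean was -1.03 in RPS pig 4, the lowest array, and the median difference was 0.03 once CS pig 3, RPS pig 2 and RPS pig 4 were left out together. Of 8 B and plasma cell genes, 2 were higher and 6 lower, with a median of -0.96 (-0.38 after normexp correction). The B cell list mean ran from -1.24 to 2.12 among the CS pigs and from -1.55 to 1.91 among the RPS pigs, so the spread between pigs of 1 diet was wider than the difference between diets. CD79A, a B cell receptor subunit with the smallest p of that list, had levels of 6.34, 8.42, 10.51 and 7.81 with CS and of 5.26, 9.90, 5.85 and 5.54 with RPS.

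The 12 neutrophil and mast cell genes, 4 higher and 8 lower, had a median of -0.07, and S100A8, a calcium-binding protein of neutrophils, had the smallest p with levels of 1.43 to 6.37 with CS and 5.13 to 5.76 with RPS. Of 7 blood and liver genes, 4 were higher and 3 lower, with a median of 0.17 and APOC3, an apolipoprotein, at -0.32. None of these genes passed. The part of any of these cell types in the differences of other lists was not tested.

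**Figure D5:**
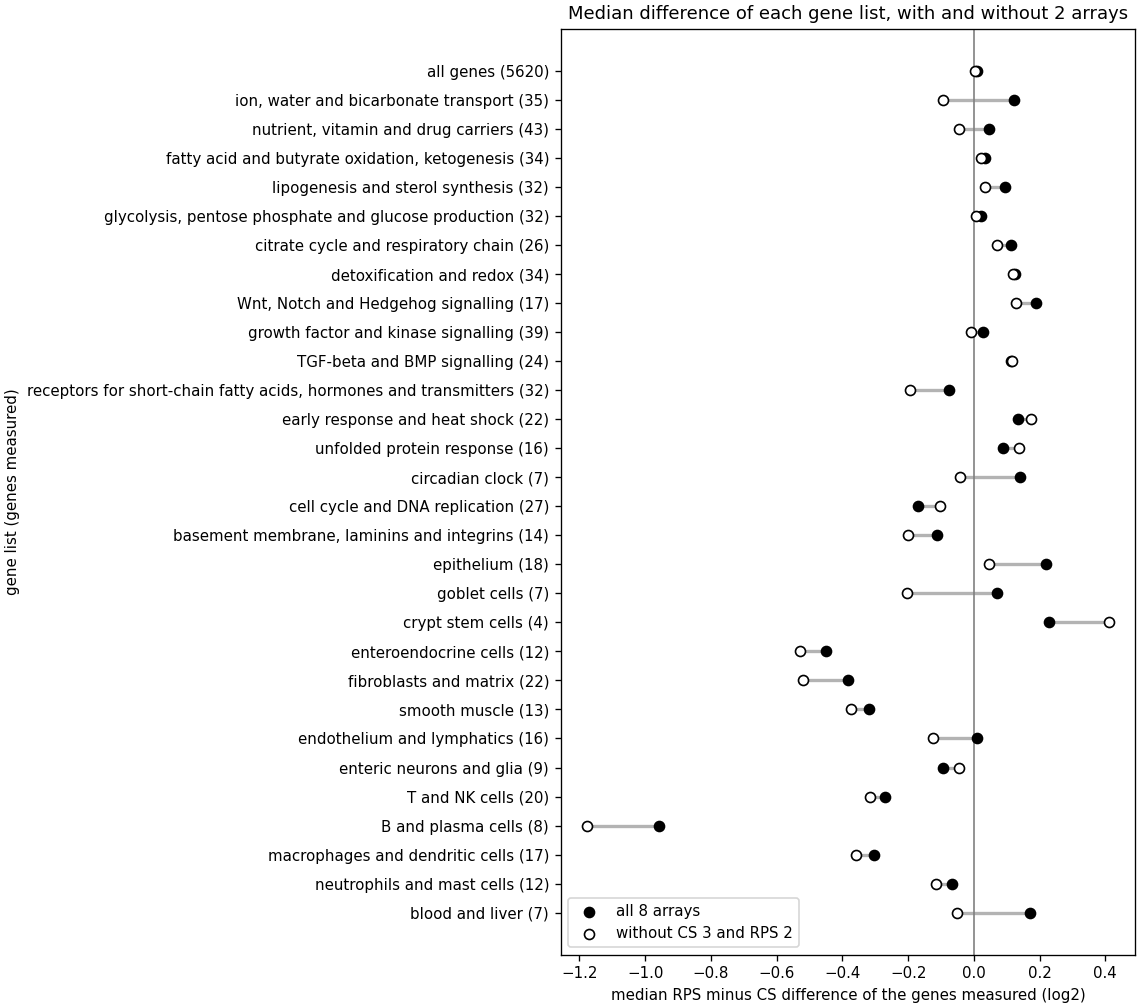
Median RPS minus CS difference (log2) of the measured genes of 29 lists and of all genes, with all 8 arrays (filled) and without CS pig 3 and RPS pig 2 (open), and the number of genes measured in brackets. The enteroendocrine, fibroblast and smooth muscle medians lay at -0.45, -0.38 and -0.32 with all arrays and at -0.53, -0.52 and -0.37 without those 2, while the epithelium median went from 0.22 to 0.05.

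In the remaining lists no gene passed. Of 22 early response and heat shock genes, 16 were higher and 6 lower, with a median of 0.13. EGR1, an immediate early transcription factor, had the smallest p, with levels of 3.89 to 4.35 with CS and 4.25 to 5.03 with RPS, a difference of 0.57 ± 0.21 at a fold change of 1.49 that passed, at 0.71, without CS pig 3 and RPS pig 2. Of 16 genes of the unfolded protein response, 13 were higher and 3 lower, with a median of 0.09, and 15 were higher and 1 lower without those arrays. With RPS pig 4 left out as well, 8 were higher and 8 lower, with a median of 0.02. CANX, the endoplasmic reticulum chaperone calnexin, differed by 0.32 with groups that did not overlap, and by 0.17 without RPS pig 4 alone. Of 7 clock genes, 5 were higher and 2 lower, with RORA at 0.19. Of 27 genes of the cell cycle and DNA replication, 9 were higher and 18 lower, with a median of -0.17 and E2F1, a transcription factor of S phase entry, at -0.28.

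The genes of the study's tables, some of which had smaller p-values, were left out here. The smallest p-values among the other named probes belonged to GPATCH2L, MXRA5, FAM124A, MAB21L1, SAG and F8. For all 6 the groups did not overlap, which a choice by smallest p makes likely and which adds no support. The SAG probe was kept through the CS arrays alone and so had to differ. GPATCH2L, a G-patch domain protein, had levels of 7.09, 7.01, 7.03 and 6.80 with CS and of 7.84, 7.61, 8.11 and 7.84 with RPS. The difference was 0.87 ± 0.13 (log2, SE, limma adjusted p = 0.232) and passed in each of 17 alternative settings. FAM124A had levels of 13.49, 13.68, 13.42 and 13.34 with CS and of 12.62, 12.73, 12.04 and 12.59 with RPS, a difference of -0.99 ± 0.17 (SE, limma adjusted p = 0.35) that likewise passed in each. RPS pig 3 was lowest for FAM124A and highest for GPATCH2L.

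MXRA5, a secreted matrix protein, had levels of 3.71, 3.61, 3.58 and 3.21 with CS and of 4.56, 4.16, 4.72 and 4.59 with RPS, a difference of 0.98 ± 0.16. MAB21L1, a developmental gene, differed by 0.82 ± 0.15. Both spots were dim, and after normexp correction the differences were 0.23 and 0.18 and did not pass. F8, coagulation factor VIII, differed by 0.58 ± 0.11, under the fold threshold. SAG, an arrestin best known from the retina, was not above background on any RPS array, and its level was at least 1.08-fold higher with CS. After normexp correction SAG differed by -0.12.

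Of the named probes, 13 were above background on all 4 CS arrays and on no RPS array, 12 of them with a bound above 1, and none was the other way round. After SLC7A8 and NNAT, and with the genes of the study's tables left out, the highest bounds were at least 1.45-fold for NR4A3, an orphan nuclear receptor, at least 1.33-fold for FMOD, the matrix proteoglycan fibromodulin, and at least 1.25-fold for SFXN3, a mitochondrial carrier. After normexp correction the NR4A3, FMOD and SFXN3 probes differed by -0.10, -0.11 and -0.11. The brightest NR4A3 probe, above background with both diets, differed by -0.05.

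DKK3, a secreted protein of the Dickkopf family, had probes that passed in opposite directions. One had levels of 4.10, 2.34, 2.38 and 3.31 with CS and of 4.49, 3.85, 3.88 and 3.97 with RPS, a difference of 1.02 ± 0.41 (log2, SE), with 2 of the 4 CS arrays above background. The other had levels of 10.14, 9.60, 9.14 and 9.74 with CS and of 9.15, 9.02, 9.15 and 8.73 with RPS, a difference of -0.64 ± 0.22. Either call was lost after normexp correction, which left 0.17 at the higher probe, and without CS pig 4 or RPS pig 4. The brightest DKK3 probe was also lower with RPS, at -0.55, under the fold threshold. Without CS pig 3 and RPS pig 2, 2 DKK3 probes that share a run of at least 15 bases passed lower, at -0.81 and -0.71. In that setting the higher probe differed by 0.87 and did not pass.

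Without CS pig 3 and RPS pig 2, 83 genes (3.3% of 2512) met the rule for agreeing probes, 17 higher and 66 lower with RPS, of which 14 had met it with all 8 arrays and 15 are in the study's tables. Of the 83, 66 had 2 passing probes with no 15-base run in common, as did 13 of the 19. The genes that follow were chosen from the 83 after their values were seen, and none of them met the rule with all 8 arrays. Antigen presentation genes were among the lower ones, with SLA-DRA, a class II chain, lower at 7 of 7 probes by -1.34 to -0.97, SLA-DQB1 at 4 of 4 by -1.09 to -0.82, and CD74, the invariant chain, at 2 of 2 by -1.31 and -1.26. PLA2G7, a phospholipase of macrophages, passed at 4 of 4 probes (-1.16 to -1.09), and GNAI2, an inhibitory G protein subunit, at 3 of 3 (-1.08 to -0.97).

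CPE passed at 7 of 7 probes (-0.79 to -0.65), AKR1B1 at 2 of 2 (-0.84 and -0.82) and LY96, the co-receptor MD-2, at 4 of 4 (-0.68 to -0.62). Among stromal genes COL6A2 passed at 2 of 2 probes, CAV1, the caveolar coat protein, at 3 of 5, and DCN, the proteoglycan decorin, at 2 of 5. The COL6A2 probes share a run of at least 15 bases, so their agreement is not a separate check. On the higher side, PRNP, the cellular prion protein, passed at 6 of 6 probes (0.80 to 1.16), SERPINA1, a protease inhibitor, at 2 of 2 (2.03 and 2.13) and CFTR at 2 of 2 (0.69 and 0.78). SERPINA1 had levels of 6.77 to 7.28 in the 3 CS pigs kept and of 8.62 to 10.02 in the 3 RPS pigs kept, but of 6.32 in CS pig 3 and 4.93 in RPS pig 2. With all 8 arrays the median over a gene's probes lay closer to 0 for each of these, as for SLA-DRA at -0.96 in place of -1.16, PRNP at 0.63 in place of 0.92 and SERPINA1 at 1.22 in place of 2.08.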

How the data were processed

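Total RNA of colonic mucosa (RNA integrity number of at least 7) was labelled with Cy3 and hybridized to Agilent porcine one-colour arrays. The labels name Agilent Feature Extraction 10.7, whose deposited scanner files give spot intensity. The authors deposited log2 values, quantile normalized in GeneSpring 11.0 over all 16 arrays, and these log2 values were tested. Genome build and probe positions are not given in the sources used here. Probe accessions, symbols and LOC numbers were matched to RefSeq gene tables, and 29329 probes had no gene name.

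RPS minus CS was fitted with limma 3.58.1 (R 4.3.3) over the 8 colonic arrays, 4 separate pigs a diet, without covariates. A probe passed at p under 0.05 before adjustment with more than 1.5-fold difference. These are the thresholds of the authors' methods, which name Student's t-test in place of limma. With that t-test 929 of all probes, 189 named probes and 13 multi-probe genes passed. Benjamini-Hochberg adjustment covered every probe on the array. Exact two-sided permutation tests covered single values. Tested on simulated data of as many probes with 200 changed, the fit passed 164 of them and 1382 unchanged ones. The simulated noise was drawn for each probe on its own, so it lacked the arrays that stood apart and the variation that real probes share.

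Members and gene lists were chosen with earlier results of these data known. Named were multi-probe genes (up to 14 a direction), up to 4 passing genes of each of 29 lists (otherwise the smallest p), the 6 smallest p-values, the highest bounds among probes above background with 1 diet, and a gene with opposed probes, leaving out genes of the study's tables. Alternatives covered scaling, normexp correction (offset 50), the fit, the arrays and the filters. A few single-gene results are not reported here.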

Additional observations from a re-analysis of the deposited data

Results flagged for a closer look

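In each diet group of 4 arrays, the highest or lowest level was compared with its nearest neighbour, as the share of the group's whole range that this gap takes up. In 13 of 188 groups of values the gap was above Dixon's critical value for groups of 4, which chance alone passes in about 1 group in 20.

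Among single genes, the share was 0.913 for SREBF1 with RPS, where pig 3 was lowest at 9.45. It was 0.886 for SPRY2 with CS, where pig 3 was lowest at 10.81, and 0.912 for LPAR1 with CS, where pig 1 was highest at 5.01. For CANX with RPS it was 0.868, with pig 4 highest at 13.64, and for COL7A1 with CS it was 0.878, with pig 4 highest at 10.996. For CD79A with RPS it was 0.872, with pig 2 highest at 9.90.

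Among list means, CS pig 3 stood apart for fatty acid and butyrate oxidation (0.843), for lipogenesis and sterol synthesis (0.897) and for goblet cells (0.907). RPS pig 2 stood apart for fatty acid and butyrate oxidation (0.913), for detoxification and redox (0.839), for the receptors of short-chain fatty acids, hormones and transmitters (0.838) and for epithelium (0.856). In all of these list means the array that stood apart was the lowest of its diet.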

How the results depend on the processing

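With 1215 of all probes, 257 of the named probes and 19 multi-probe genes past both thresholds, the counts moved by over 1.5 times under these alternatives. Scaling to the 75th percentile gave 1968 probes, of which 69.0% were higher with RPS against 55.1%. Normexp correction gave 172 probes, 83 named probes and 9 multi-probe genes. Testing the probes above background on all 8 arrays gave 603, and a fold change above 2 gave 418, 73 and 7. Fitting all 16 arrays together gave 33 multi-probe genes. Without CS replicate 3 and RPS replicate 2 there were 2375, 647 and 83, and without RPS replicate 4 as well 2601, 646 and 69. Leaving out 1 array at a time gave 1032 to 2550 probes, 187 to 668 named probes and 13 to 85 multi-probe genes, the highest without RPS replicate 2, and 39 multi-probe genes without CS replicate 3. Averaging probes by gene gives no count of probes. The cause of these shifts was not tested.

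Diet groups share replicate numbers, and the authors' methods name the replicate as a block. Deviations of same-numbered pigs from their diet means had correlations of 0.54, -0.38, -0.52 and 0.10 over 26511 probes. The arrays that stood apart, CS replicate 3 and RPS replicate 2, have different numbers and weigh on these values. The correlations therefore cannot settle whether the numbers pair the pigs. With the replicate number as a block, 1194 probes passed.

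Over 65 single probes and 1235 alternatives, 956 kept direction and side of the thresholds, 243 lost and 34 gained the call, and 2 reversed. These were the FBN1 probe that did not pass, at 0.025 without CS replicate 4 in a range of -0.54 to 0.025 as arrays were left out, and DKK3, at -0.056 with its probes averaged by gene. Normexp correction ended 28 calls, but its offset of 50 by itself shrinks differences at dim spots. The levels of dim spots are also limited by signal over background.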

Other observations

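The authors' table holds values of spots that the scanner software marked as outliers. Of the named probes above background, 11 have such a spot, 1 of them, of CLMP, past both thresholds, and none is described in the results above. At such a spot on the array of RPS pig 4, CCSER2 had a level of 16.93 against 7.26 to 7.76 on the other arrays.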
